A study of Mus musculus with 107 samples.

Results

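Potassium channel subunits were followed across 24 ribosome-tagged cell types from mouse brain and spinal cord and the unbound RNA of 6 tissues. The members were all genes whose symbol in the array annotation begins with Kcn and a further letter, taken from probe sets with 1 symbol. Where a gene had several probe sets, the probe set with the highest mean over all 107 arrays stood for it. This gave 84 genes of 18193 on the array, measured by 167 probe sets, and 46 of the 84 had more than 1 probe set. The rule itself used no measured difference between cells, but the members were chosen with earlier results of these data known. By symbol they fell into 13 voltage-gated pore subunits (Kcna, Kcnc and Kcnd), 9 silent modifier subunits (Kcnf, Kcng, Kcns and Kcnv), 15 auxiliary subunits (Kcnab, Kcne, Kcnip and Kcnmb), 3 Kcnq subunits, 6 Kcnh subunits, 15 inward rectifiers (Kcnj), 12 two-pore-domain subunits (Kcnk), 8 calcium- or sodium-activated subunits (Kcnma, Kcnn, Kcnt and Kcnu) and 3 noncoding RNAs.

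Translating ribosome affinity purification (TRAP) pulls down ribosomes that carry a tag in 1 cell type, together with the messenger RNA they hold. Each mouse line carried a bacterial artificial chromosome transgene whose driver gene decided which cells were tagged, and the RNA left after purification (unbound RNA) came from the same tissues. In cortex the tagged cells were layer 5a, layer 5b (glt25d2 driver), layer 6 (ntsr1), Cck+ (cck), Cort+ (cort) and Pnoc+ (pnoc) neurons, astrocytes (aldh1l1), mature oligodendrocytes (cmtm5) and mixed oligodendroglia (olig2). In cerebellum they were Purkinje (pcp2), stellate and basket (lypd6), Golgi (grm2), granule (neurod1) and unipolar brush (grp) neurons, astrocytes (aldh1l1), Bergmann glia (septin4), mature oligodendrocytes (cmtm5) and mixed oligodendroglia (olig2). In striatum they were Drd1+ (drd1) and Drd2+ (drd2) medium spiny neurons and cholinergic neurons (chat), and the chat driver also gave basal forebrain cholinergic, brainstem motor and spinal cord cholinergic neurons. There were 3 TRAP arrays per population, except 6 for Purkinje neurons (lines DR166 and DR168) and 4 for cortical astrocytes (lines JD130 and JD133). Unbound RNA had 9 arrays in cortex, 7 in cerebellum, 6 in striatum and 3 each in basal forebrain, brainstem and spinal cord. All mice were transgenic, and the labels used here name no treatment. Age, sex and strain are not given in the sources used here. Every other population came from 1 line, so a driver's own reach cannot be told apart from the cell type it stands for.

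Potassium channels let potassium leave the cell, and so set the resting voltage, end action potentials and space them in time. Voltage-gated channels are built of several pore subunits with cytosolic or membrane auxiliary subunits, while silent modifier subunits form no channel alone and join pore subunits of the Kcnb family. Inward rectifiers hold the resting voltage and, in astrocytes, take up potassium released by active neurons. Two-pore-domain subunits carry leak current. Calcium- and sodium-activated channels follow the entry of those ions. In neurons, the mix of subunits is known to differ with firing pattern.

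Levels below are on a log2 scale, with every group's control probe sets brought to 1 mean, and a gene counted as measurable in a group at a mean of 6 (an intensity of 64). Of the 84 members, 61 reached 6 in at least 1 TRAP population (72.6%, against 68.1% of all genes). Breadth differed from the array as a whole: 7 of the 61 were at 6 or more in all 24 populations (11.5%, against 39.8% of all genes that reached 6), and 13 in only 1 to 3 populations (21.3%, against 12.4%). The 7 broad members were the pore subunits Kcna1, Kcna2, Kcnc1, Kcnd2 and Kcnd3, the beta subunit Kcnmb4 of large-conductance calcium-activated channels, and the two-pore-domain subunit Kcnk1. Against unbound RNA they were called higher and lower in 0 and 12, 0 and 17, 1 and 15, 2 and 14, 1 and 14, 3 and 8, and 3 and 9 populations, in that order. Glial TRAP also held neuron markers (Snap25 11.74 and Rbfox3 10.48 in cortical astrocytes), and their part in this breadth was not tested. The median member spanned 6.94 log2 units between its highest and lowest population, against 4.98 for all genes that reached 6. All 61 differed among the 24 populations in limma's moderated F test across all genes, as did 100% of all genes tested.

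The number of members at 6 or more ranged from 20 in cortical astrocytes (23.8%, against 47.2% of all genes) to 48 in layer 5a neurons (57.1%, against 57.1% of all genes). Layer 5b neurons had 43 (51.2%, against 53.5%), layer 6 neurons 42 (50%, against 52.4%) and brainstem motor neurons 41 (48.8%, against 48.2%), all near the share of all genes. Purkinje neurons had 23 (27.4%, against 42.8%), Golgi neurons 24 (28.6%, against 38.8%) and granule neurons 28 (33.3%, against 45.9%). Among glia, mature oligodendrocytes of cortex had 35 (41.7%, against 47.7%) and Bergmann glia 26 (31%, against 49.3%). The 23 members that reached 6 in no population were Kcna3, Kcna7, Kcne1, Kcne3, Kcng2, Kcnh7, Kcnj1, Kcnj15, Kcnj2, Kcnj5, Kcnj6, Kcnk15, Kcnk16, Kcnk5, Kcnk7, Kcnmb1, Kcnmb4os1, Kcnn3, Kcnn4, Kcnq1, Kcnq1ot1, Kcns1 and Kcnv2. A level below 6 is at or near the background of these arrays, where between 25.8% and 41.6% of an array's values were at its lowest value, and it does not show that a gene was silent. In a bulk preparation, fewer cells of a type and less RNA per cell cannot be told apart.

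**Figure D1:**
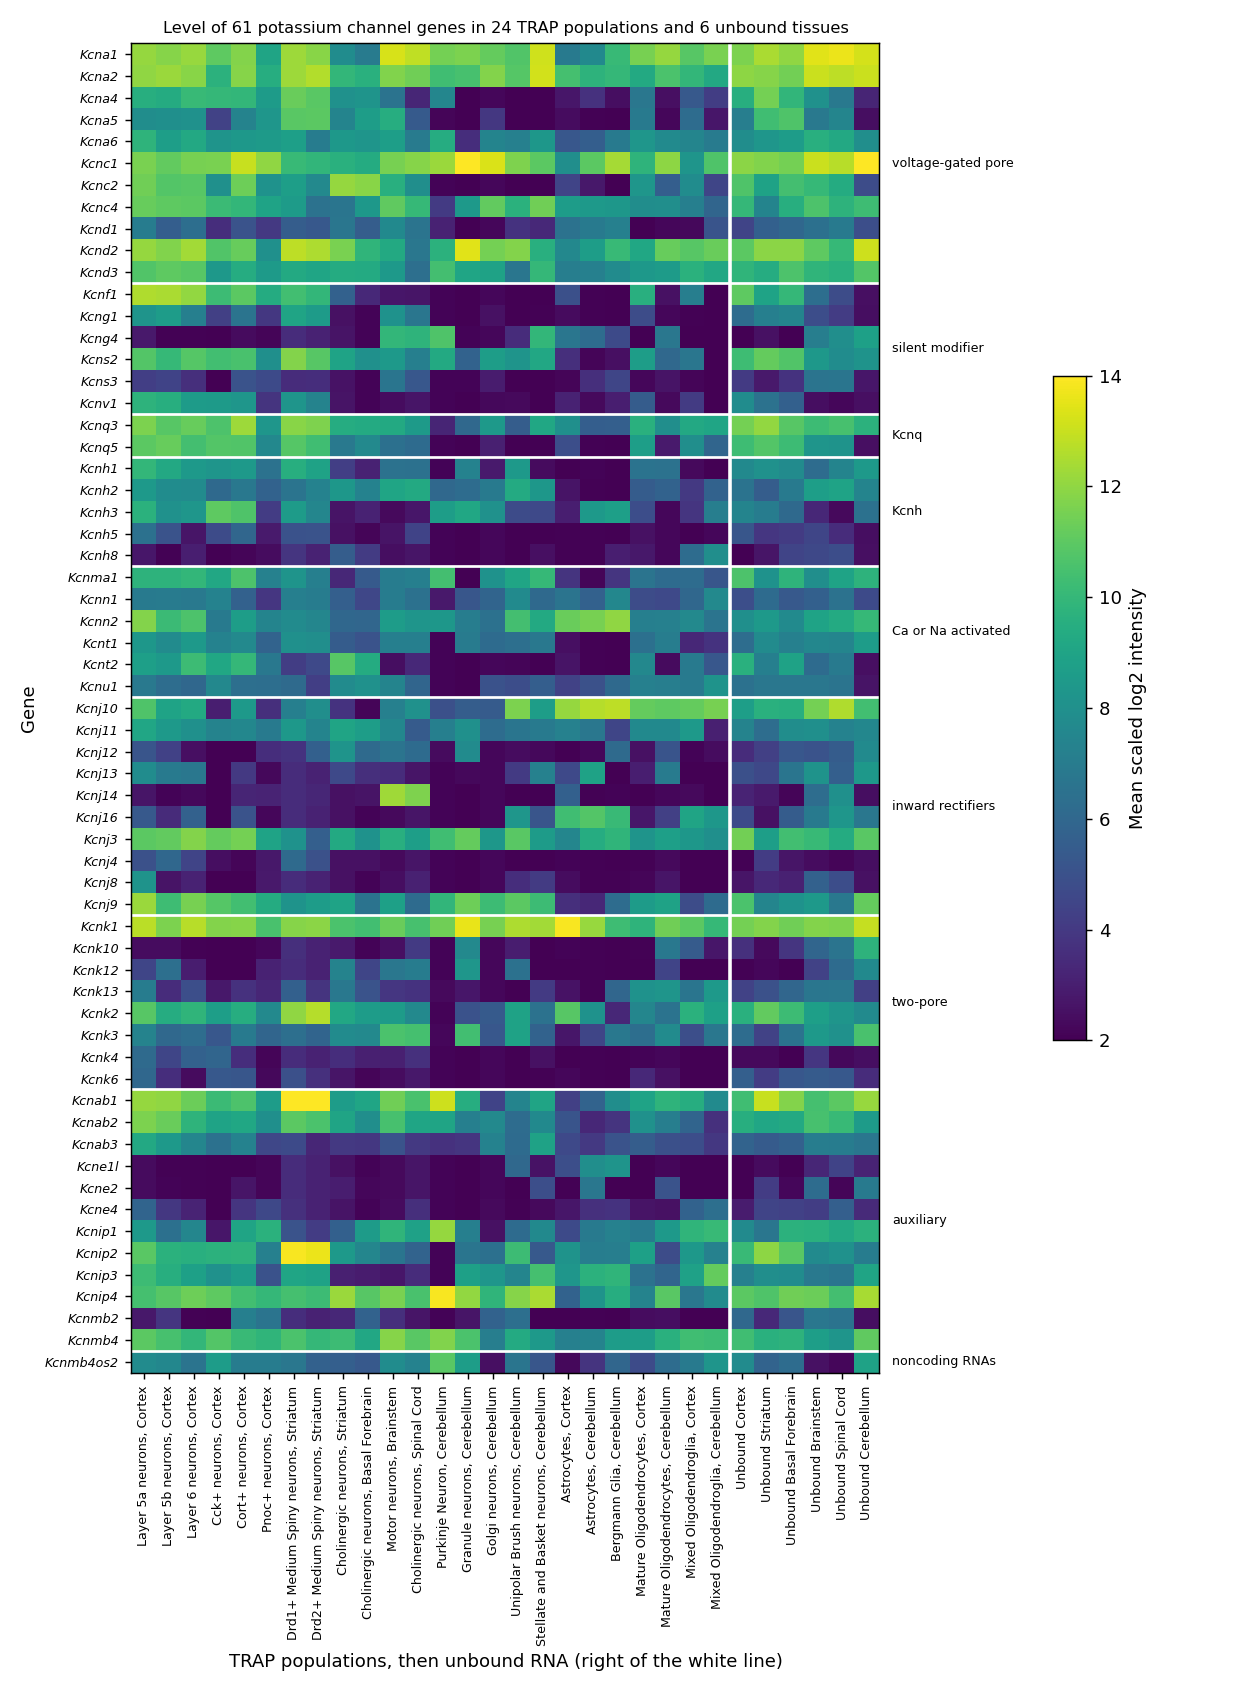
Heat map of the 61 potassium channel genes that reached a log2 intensity of 6 (rows, by class) in the 24 TRAP populations and the unbound RNA of 6 tissues (columns). Colour gives the mean log2 intensity of each group from 2 to 14, with higher values shown at 14. Kcnj14 is coloured in brainstem motor (12.31) and spinal cord cholinergic neurons (11.68). The pore subunits Kcna1, Kcna2, Kcnc1, Kcnd2 and Kcnd3 are at 6 or more in every population. Glial populations are among these, and neuron markers were measurable there too (Snap25 11.74 in cortical astrocytes).

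Facts of the whole series bear on several members. Neuron markers (6 genes) averaged 11.48 in cortical mature oligodendrocyte TRAP and 8.41 in cortical astrocyte TRAP, against 11.44 to 14.26 in neurons. Astrocyte markers (7 genes) averaged 12.69 in layer 5a, 12.04 in unipolar brush and 10.59 in unbound cortex, against 13.87 in cortical astrocytes. Layer 5a TRAP was the only population with all 7 microglia and macrophage markers at 6 or more (mean 10.64), and its pericyte markers averaged 10.68 (2 of 2 at 6 or more). Oligodendrocyte markers averaged 11.9 there (5 of 5), against 9.80 in unbound cortex. Of 872 member levels of at least 6 in groups of 3 arrays, 102 (11.7%) were the same on all 3 arrays within 0.0001 log2 units, so an SD of 0 reflects the deposited values and not an absence of biological spread. Replicates are separate TRAP preparations, and p-values measure only the spread left between them after the authors' normalization within groups of replicates. In groups of 3 arrays, between 47.2% and 66.5% of all values were identical on all 3, so p-values can understate the spread between preparations. Since each group was normalized by itself, normalization and group cannot be told apart.

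Among inward rectifiers, Kcnj10 and Kcnj16, whose proteins join into the potassium uptake channel of astrocytes, were highest in the 3 astroglial populations. Kcnj10 was at 12.18, 11.72, 12.22 and 12.37 in cortical astrocytes, at 12.65, 12.65 and 12.70 in cerebellar astrocytes and at 13.07, 12.57 and 12.73 in Bergmann glia. Oligodendroglia followed, with 11.10, 11.19 and 11.19 in cortical mature oligodendrocytes and 11.55, 11.56 and 11.45 in cerebellar mixed oligodendroglia. Every array of those 3 astroglial populations lay above every array of these oligodendroglial ones. The lowest level of Kcnj10 was 2.18 in basal forebrain cholinergic neurons. Kcnj16 was at 10.28, 10.26, 10.26 and 10.39 in cortical astrocytes, at 10.80, 10.71 and 10.80 in cerebellar astrocytes and at 10.22, 9.75 and 10.48 in Bergmann glia. It was at 2.72 on all 3 arrays of cortical mature oligodendrocytes and at 4.26 on all 3 of cerebellar ones, while cortical mixed oligodendroglia had 8.58, 9.41 and 9.09. So the 2 genes were shared by astroglia, and of the pair Kcnj10 alone was measurable in mature oligodendrocytes. Unipolar brush TRAP also held both, with 11.51, 11.83 and 11.54 for Kcnj10 and 7.86, 8.45 and 8.57 for Kcnj16. Since astrocyte markers averaged 12.04 there, with 7 of 7 at 6 or more, these 2 genes moved with them, and the part of astrocyte RNA in their levels was not tested. The same holds for Kcnj10 in layer 5a neurons (10.65, 10.70 and 10.76), where Kcnj16 was at 5.35, 5.35 and 5.38.

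Promoter windows (300 bases around an annotated start, from RefSeq on GRCm38.p6) are shown for 2 pairs of members that were high in the same populations: Kcnj10 and Kcnj16 in astroglia, Kcnip2 and Kcnab1 in medium spiny neurons. RefSeq windows were matched for 64 of the 84 members. Capitals mark the nuclear factor I motif TTGGC on either strand (GCCAA when read on the other) and the E-box CAGCTG, which reads the same on both strands and overlaps no TTGGC. All are written 5′ to 3′ on the gene's own strand.
Kcnj10: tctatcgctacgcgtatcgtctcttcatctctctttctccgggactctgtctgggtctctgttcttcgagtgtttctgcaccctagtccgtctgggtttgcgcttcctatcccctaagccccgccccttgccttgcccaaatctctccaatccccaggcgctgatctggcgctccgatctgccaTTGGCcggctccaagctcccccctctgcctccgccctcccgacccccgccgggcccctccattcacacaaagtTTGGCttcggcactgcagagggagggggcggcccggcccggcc
Kcnj16: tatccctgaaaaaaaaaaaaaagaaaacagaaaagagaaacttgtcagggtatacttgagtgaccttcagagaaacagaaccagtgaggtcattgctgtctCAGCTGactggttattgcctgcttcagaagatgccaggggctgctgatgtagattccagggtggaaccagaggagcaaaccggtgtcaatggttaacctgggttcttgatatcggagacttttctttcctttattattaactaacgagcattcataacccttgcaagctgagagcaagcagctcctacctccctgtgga
Kcnip2: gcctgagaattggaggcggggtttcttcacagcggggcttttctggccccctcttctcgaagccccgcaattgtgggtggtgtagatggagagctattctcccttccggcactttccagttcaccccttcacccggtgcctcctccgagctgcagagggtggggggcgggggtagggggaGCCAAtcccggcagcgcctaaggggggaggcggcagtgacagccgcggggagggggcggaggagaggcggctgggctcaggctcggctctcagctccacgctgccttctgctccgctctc
Kcnab1: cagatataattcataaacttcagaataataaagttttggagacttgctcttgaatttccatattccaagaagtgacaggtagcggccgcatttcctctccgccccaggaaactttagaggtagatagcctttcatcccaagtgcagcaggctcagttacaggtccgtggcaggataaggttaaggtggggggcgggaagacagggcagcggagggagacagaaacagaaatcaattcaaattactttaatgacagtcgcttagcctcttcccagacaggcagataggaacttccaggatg
The Kcnj10 window lies at chr1:172340960-172341259 on the plus strand, and the Kcnj16 window, the first of 4 annotated starts, at chr11:110967783-110968082 on the plus strand. The Kcnip2 window lies at chr19:45816014-45816313 on the minus strand, and the Kcnab1 window, the first of 3, at chr3:64948962-64949261 on the plus strand. TTGGC occurred 2 times in the Kcnj10 window and 1 time in that of Kcnip2, and CAGCTG 1 time in that of Kcnj16. Of 32851 windows of the same length, 46.7% held TTGGC and 16.3% held CAGCTG, so these matches are common ones. The windows of the first pair had a GC content of 63.7% (Kcnj10) and 44.3% (Kcnj16), and those of the second 67% (Kcnip2) and 46.7% (Kcnab1).

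**Figure D2:**
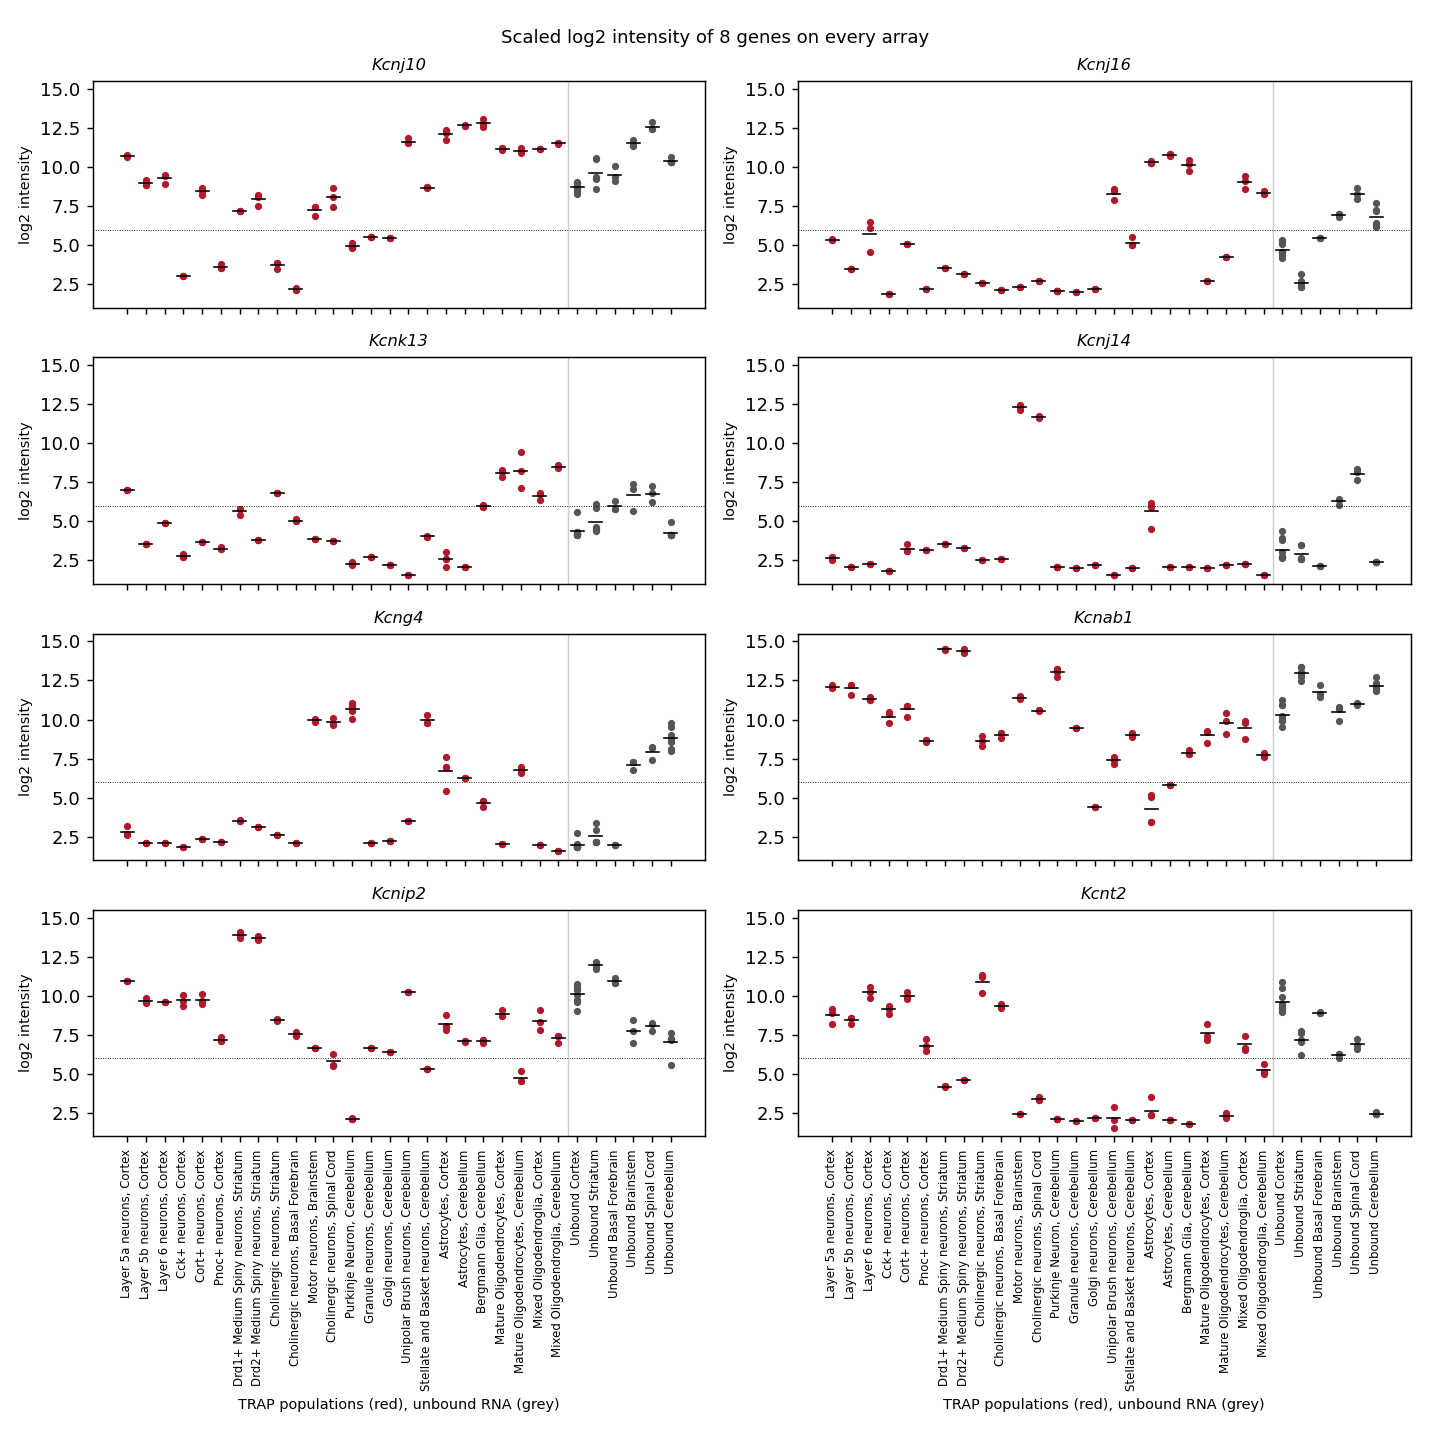
Log2 intensity of Kcnj10, Kcnj16, Kcnk13, Kcnj14, Kcng4, Kcnab1, Kcnip2 and Kcnt2 on every array (points) of the 24 TRAP populations (red) and unbound RNA (grey), with a bar at each group mean and a dotted line at the minimum of 6. Among TRAP populations Kcnj14 has a mean above 6 in brainstem motor (12.31) and spinal cord cholinergic neurons (11.68) alone, and Kcnt2 is above 9 in striatal cholinergic (10.90), layer 6 and basal forebrain cholinergic neurons among others.

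Of the 10 inward rectifiers that reached 6, 3 did so in only 1 to 3 populations, and others were broader. Kcnj14, described in motor nuclei of the rat brainstem, was at 12.46, 12.15 and 12.32 in brainstem motor neurons and at 11.66, 11.61 and 11.77 in spinal cord cholinergic neurons. No other population reached 6, and the next was cortical astrocytes with a mean of 5.68. Kcnj8, a pore of ATP-sensitive channels that is known in pericytes, was at 7.37, 8.67 and 8.46 in layer 5a TRAP and below 6 in the other 23 populations. Pericyte markers were measurable beside it there (Rgs5 11.99, Pdgfrb 9.37), and their part in the Kcnj8 level was not tested. Kcnj13, known in choroid plexus, was at 8.75, 8.33 and 9.72 in cerebellar astrocyte TRAP, and its partner in that tissue Kcne2 at 7.06, 5.40 and 7.87. The choroid plexus markers averaged 8.95 in those arrays (Ttr 15.78, Folr1 6.18, Kl 4.90), against 4.43 in Bergmann glia, where Kcnj13 was at 1.81. Kcnj13 was also measurable in layer 5b (6.91, Ttr 10.26), layer 6 (6.78, Ttr 8.39) and cerebellar mature oligodendrocyte TRAP (6.99, Ttr 15.16). Kl and Folr1 were below 6 in all of these. The part of the choroid plexus markers was not tested either. Kcnj3 and Kcnj9 are G-protein-gated subunits that carry the slow inhibition by many transmitters. Kcnj3 was highest in layer 6 neurons (11.76) and was also measurable in glial TRAP, at 9.87 in Bergmann glia and 7.49 in cortical astrocytes. Both glial levels were below the unbound RNA of their tissue (10.93 in cerebellum, 11.44 in cortex). The neuron marker Snap25 was at 13.69 and 11.74 in these 2 populations, and the part of neuron RNA was not tested. Kcnj9 was at 12.42, 11.91 and 12.21 in layer 5a neurons and 3.49, 3.57, 3.83 and 3.56 in cortical astrocytes, with means of 8.56 in cortical and 8.90 in cerebellar mature oligodendrocytes. Kcnj11, the other ATP-sensitive pore, was measurable in 21 populations, with 9.10 in layer 5a and 9.01 in striatal cholinergic neurons. Kcnj12, a strong rectifier, was highest in striatal cholinergic neurons (8.36, 8.17 and 8.07) and granule neurons (7.30, 7.92 and 8.21).

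Voltage-gated pore subunits were the broadest class: 11 of 13 reached 6 and 5 of these did so in all 24 populations. Glial TRAP held neuron markers, as given above, and their part in this breadth was not tested. Kcnc1, of the fast-gating channels that allow rapid firing, was at 14.62, 14.52 and 14.65 in granule neurons, 13.07, 13.64 and 13.18 in Golgi neurons and 12.97, 12.98 and 12.97 in Cort+ neurons. Its relative Kcnc2 was highest in striatal cholinergic (12.28, 12.28 and 11.81) and basal forebrain cholinergic neurons (11.94, 11.86 and 11.86), and Kcnc4 in stellate and basket neurons (11.20, 11.45 and 11.53). Kcnc4 was lowest in Purkinje neurons, with a lowest array of 3.79, a median of 3.92 and a highest of 4.43. The axonal subunits Kcna1 and Kcna2 were both near the top in stellate and basket neurons (13.11 and 13.17, each on its own probe set), and Kcna1 was at 13.27 in brainstem motor neurons. Kcna4 and Kcna5 were highest in medium spiny neurons: Kcna4 at 11.28 in Drd1+ and 10.93 in Drd2+ neurons, Kcna5 at 10.93 in Drd1+ and 10.99 in Drd2+ neurons. Kcnd2, the pore of dendritic A-type current, was highest in granule neurons (13.47) and Drd1+ neurons (12.82), and Kcnd3 in layer 5b neurons (11.04).

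Silent modifier subunits were narrower, with 6 of 9 reaching 6 and none in all populations. Kcng4 was at 10.05 (lowest), 10.71 (median) and 11.07 (highest) in Purkinje neurons, at 10.06, 9.99 and 9.83 in brainstem motor neurons and at 9.80, 9.76 and 10.28 in stellate and basket neurons. It was at 2.12 on all 3 granule arrays and at 2.21 on all 3 Golgi arrays, so neighbouring cerebellar neurons lay on both sides. The Purkinje lines DR166 and DR168 had means of 10.97 and 10.40. Kcnf1 was highest in deep cortical layers, at 12.49, 12.80 and 12.41 in layer 5a, 12.37, 12.61 and 12.44 in layer 5b and 12.06 on all 3 layer 6 arrays, while cortical astrocytes had 4.28, 5.37, 4.75 and 5.37. Medium spiny neurons also held it, with means of 10.35 in Drd1+ and 9.92 in Drd2+ neurons. Kcnv1 shared this order (layer 5a 9.77, layer 5b 9.52, layer 6 8.60), and Kcns2 was highest in Drd1+ neurons (11.78).

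Auxiliary subunits differed widely among neurons. Kcnab1, a cytosolic beta subunit of Kcna channels, was at 14.51, 14.54 and 14.42 in Drd1+ neurons, at 14.37, 14.52 and 14.25 in Drd2+ neurons and at 12.72 (lowest), 13.13 (median) and 13.22 (highest) in Purkinje neurons. Kcnip2, which binds Kcnd channels and slows their inactivation, was at 13.90, 14.08 and 13.72 in Drd1+ and 13.55, 13.63 and 13.83 in Drd2+ neurons, with the lowest mean, 2.13, in Purkinje neurons. In place of Kcnip2, Purkinje neurons held Kcnip1 (11.70, 12.08 and 12.46 as lowest, median and highest) and Kcnip4 (13.65, 13.89 and 14.09). Kcnip3 was highest in cerebellar mixed oligodendroglia (11.17) and lowest in Purkinje neurons (2.11). Kcnmb4 was highest in brainstem motor (11.84) and Purkinje neurons (11.72). Kcnmb2, which inactivates large-conductance channels, was measurable in Cort+ (7.48, 6.78 and 7.32), Pnoc+ (6.59 on all 3 arrays) and unipolar brush neurons (6.37) alone. Kcne1l was measurable in Bergmann glia (8.20 on all 3 arrays), cerebellar astrocytes (7.88, 8.05 and 7.91) and unipolar brush neurons (5.62, 6.61 and 5.95), and astrocyte markers were measurable in all of these.

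Among the remaining classes, the Kcnq subunits of the slow M-current were highest in Cort+ neurons (Kcnq3 12.24) and layer 5b neurons (Kcnq5 11.23). Of the Kcnh subunits, Kcnh1 was highest in layer 5a (9.96), Kcnh2 in unipolar brush (9.35), Kcnh3 in Cck+ (11.03) and Kcnh8 in mixed oligodendroglia, at 7.81, 8.13 and 7.90 in cerebellum and 6.44, 6.14 and 6.14 in cortex. Of two-pore-domain subunits, Kcnk1 was at 14.11, 13.51, 14.21 and 13.68 in cortical astrocytes, and Kcnk2 was highest in Drd2+ (12.67) and Drd1+ neurons (12.02). Kcnk3, an acid-sensitive leak channel, was highest in brainstem motor (10.58), spinal cord cholinergic (10.45) and granule neurons (10.37), which do not differ beyond the spread of their arrays (9.86 to 11.08). Kcnk13 was highest in oligodendroglia, as given below, and also measurable in layer 5a (7.03 on all 3 arrays) and striatal cholinergic neurons (6.82 on all 3). Of the activated channels, Kcnma1, the large-conductance pore, was highest in Cort+ (10.65) and lowest in granule neurons (2.02), Kcnn2, a small-conductance pore, was highest in Bergmann glia (12.01) and layer 5a (11.78), and the sodium-activated Kcnt2 in striatal cholinergic neurons (11.19, 11.33 and 10.17). Kcnu1, known in mouse from sperm, was highest in cerebellar mixed oligodendroglia (8.19). The noncoding Kcnmb4os2 was highest in Purkinje neurons (10.91). It is named as lying opposite Kcnmb4, and the probe sets were taken as the annotation assigns them.

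These rankings rest on 1 probe set per gene and on the scaling. The highest population was the same in 46 of 61 members without further scaling, in 34 of 61 after quantile normalization and in 47 of 61 with the mean of all probe sets. Second probe sets gave the same highest population for Kcnj16 (9.62), Kcnab1 (10.15), Kcnip2 (9.58), Kcnip1 (10.85), Kcnip4 (11.12) and Kcnc1 (10.08). They gave another one for Kcna6 (spinal cord cholinergic 10.26), Kcnma1 (Purkinje 11.29), Kcnq5 (Cck+ 10.85), Kcnf1 (layer 5b 9.10) and Kcnh3 (Cort+ 10.92), and the chosen Kcnh3 probe set is of the array maker's x type, whose probes can match other transcripts.

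TRAP RNA was first set against the unbound RNA of the same tissue, the comparison that the study's text recommends as a filter. Calls in this and later comparisons needed an adjusted p under 0.05 from limma, with Benjamini-Hochberg adjustment over all genes tested, and at least a 2-fold difference. Between TRAP populations, only genes above their tissue's unbound RNA in at least 1 population compared were tested, which lowers the number of members tested. A fold is written as "at least" where a population on the lower side was below 6 and was set to 6. Populations of 1 tissue share their unbound arrays, so their calls are not independent. Summed over the 24 populations, members were called higher 191 times and lower 467 times (211 and 369 after quantile normalization, with 146 and 345 under both). The median difference of all genes ranged from -1.96 to 1.31 between populations, so counts of single populations are given beside the share or the median difference of all genes. The sums have no such share and are not read as a result about the members.

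**Figure D3:**
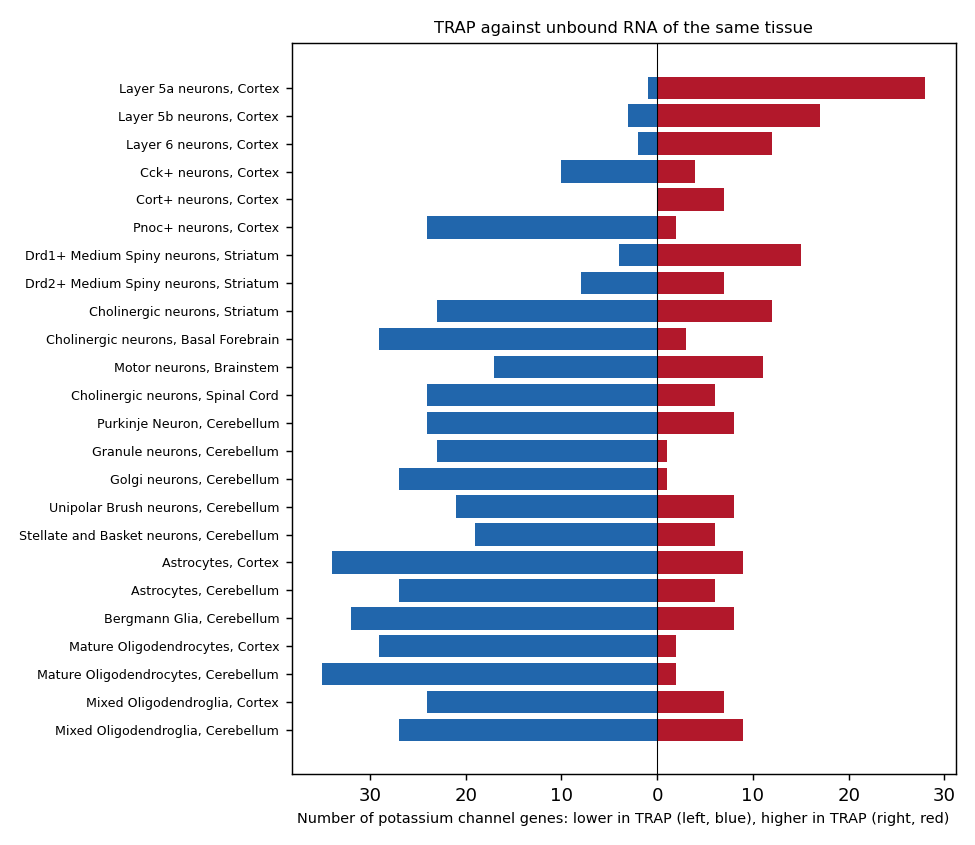
Number of potassium channel genes called lower (left, blue) and higher (right, red) in TRAP than in unbound RNA of the same tissue, for each of the 24 populations. Layer 5a neurons had 28 higher and 1 lower, and cerebellar mature oligodendrocytes had 2 higher and 35 lower.

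In the 7 glial populations, between 2 and 9 members were called higher and between 24 and 35 lower. No share of all genes stands beside these ranges, and they are not read as a result about the members. Cerebellar astrocytes had 6 higher and 27 lower, with a median difference of -3.225 for members and -0.93 for all genes. Cortical mature oligodendrocytes had 2 and 29 (medians -1.56 and -0.40), and cortical mixed oligodendroglia 7 and 24 (medians -2.005 and 0.36). The other 4 are given with the share of all genes. Cortical astrocytes had 9 higher and 34 lower (33% and 31.5% of all genes), led by Kcnj16 at 10.30 ± 0.06 against 4.69 ± 0.41 in unbound cortex (SD, n = 4 and 9), at least 19.7-fold. Kcng4 (6.73 against 1.99) followed, and Kcnj10 was at 12.12 ± 0.28 against 8.73 ± 0.27 (10.5-fold). Neither Kcnj10 nor Kcnj16 had an astrocyte array within the unbound range, which ran from 8.25 to 9.06 and from 4.15 to 5.31. Bergmann glia had 8 higher and 32 lower (19.6% and 39.5%), led by Kcne1l (at least 4.61-fold), Kcnu1 and Kcnj16 (10.4-fold). Cerebellar mature oligodendrocytes had 2 higher and 35 lower (8.42% and 53.3%; 4 and 20 after quantile normalization), and both higher ones, Kcnk13 (at least 4.77-fold) and Kcnu1, were also among the 9 higher in cerebellar mixed oligodendroglia (17.8%, with 27 lower, 39.1%), where Kcnh8 was at least 3.85-fold higher.

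In neurons the split varied. Layer 5a had 28 higher and 1 lower (60.7% and 2.31% of all genes), but 7 higher and 10 lower after quantile normalization. The largest differences there were Kcnj8 (8.17 against 2.68, at least 4.49-fold), Kcnk4 and Kcnn2 (11.78 against 7.97, 14-fold). Brainstem motor neurons had 11 higher and 17 lower (9.42% and 32.3%; 15 and 9 after quantile normalization), and Kcnj14 stood at 12.31 ± 0.16 against 6.31 ± 0.20 in unbound brainstem (SD, n = 3 each), 64.0-fold, adjusted p 2.71e-36. Spinal cord cholinergic neurons had 6 higher and 24 lower (5.38% and 53.3%; 15 and 8 after quantile normalization), with Kcnj14 at 11.68 ± 0.08 against 8.04 ± 0.37 (12.5-fold). The 3 unbound brainstem arrays (6.45, 6.08 and 6.40) and the 3 unbound cord arrays (8.15, 8.34 and 7.62) all lay below the TRAP arrays of their tissue. Purkinje neurons had 8 higher and 24 lower (14% and 49.2%), granule neurons 1 and 23 (5.33% and 38%) and Golgi neurons 1 and 27 (4.41% and 70.4%), and the single gene was Kcnh3 in both. After quantile normalization these became 13 and 18 for Purkinje, 4 and 16 for granule and 13 and 14 for Golgi neurons. Striatal cholinergic neurons had 12 higher and 23 lower (23.2% and 30.9%), with Kcnt2 13.3-fold higher (10.90 against 7.16). Drd1+ neurons had 15 higher and 4 lower (29.8% and 8.21%), or 6 and 6 after quantile normalization. Basal forebrain cholinergic neurons had 3 higher and 29 lower (7.99% and 41.5%), led by Kcnc2 (2.80-fold), and quantile normalization gave 9 and 16. Unipolar brush neurons had 8 higher and 21 lower (12.1% and 37.5%), including Kcnip2 (9.18-fold), and Pnoc+ neurons 2 and 24 (2.92% and 58.1%; 7 and 15 after quantile normalization), led by Kcnip1 (3.88-fold). Layer 5b neurons had 17 higher and 3 lower (36.6% and 4.91%; 9 and 6 after quantile normalization), including Kcnab3 (at least 5.60-fold), and layer 6 neurons 12 and 2 (30.8% and 4.53%; 6 and 3 after quantile normalization), led by Kcnn2 (6.47-fold). Cort+ neurons had 7 higher and 0 lower in limma (12.8% and 4.45% of all genes), with 2 lower at an unadjusted p under 0.05.

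Across populations, some members were enriched in many and some in none. Kcnn1, a small-conductance pore, was called higher in 10 populations and lower in 0, and Kcnd1 higher in 7 and lower in 0. Where unbound RNA was below 6, a lower call was not possible, since the gene was tested only if TRAP reached 6. This held for Kcnn1 in cortex (4.91), cerebellum (4.69), basal forebrain (5.36) and brainstem (5.66). It held for Kcnd1 in cortex (4.46), cerebellum (4.86) and striatum (5.67). Kcna2 and Kcnq3 were above 6 in every unbound tissue. Kcna2 was called higher in 0 and lower in 17, and Kcnq3 higher in 0 and lower in 14 populations. Kcnj10 was called higher in 8 and lower in 12, Kcnip3 higher in 9 and lower in 8, and Kcnh3 higher in 9 and lower in 9 populations. These counts use shared unbound arrays and carry no test of their own.

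Cortical neurons (6 populations, 18 arrays) were compared with cortical glia (3 populations, 10 arrays) to see which subunits separate the 2 kinds of cell. Of 52 members tested, 39 were higher in neurons (75%, against 31.2% of all genes) and 5 were lower (9.62%, against 21%). The median difference of the members was 1.85 log2 units, against 0.25 for all genes, and quantile normalization left 33 higher and 5 lower. Kcnj9 averaged 10.76 ± 0.62 in neurons and 5.65 ± 0.93 in glia (SD within populations), a difference of 5.11 (SE 0.33, adjusted p 5.22e-25), at least 15.0-fold. Its arrays overlapped, since cortical mature oligodendrocytes had 9.59, 8.52 and 7.58. Kcnf1 had the same exception, with 11.28 in neurons and 7.21 in glia (at least 13.1-fold) but 10.78, 9.56 and 8.39 in mature oligodendrocytes. Neuron markers averaged 11.48 in that population with 6 of 6 at 6 or more, and their part was not tested.

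By class, those higher in cortical neurons were 11 of 11 voltage-gated pores tested, 7 of 9 auxiliary subunits, 4 of 5 silent subunits (1 lower), 4 of 5 Kcnh subunits (1 lower), 4 of 7 inward rectifiers (2 lower) and 4 of 7 two-pore-domain subunits (1 lower). Of the Kcnh subunits, Kcnh1 was at 8.5 against 3.63 (at least 4.98-fold) and Kcnh3 at 8.66 against 3.90 (at least 6.31-fold). Of the voltage-gated pores, Kcna4 was at 9.59 against 4.94 (at least 10.1-fold) and Kcnc1 at 11.80 against 8.66 (8.78-fold), neither with overlap between the groups. Kcnip4 (10.68 against 6.63, at least 15.8-fold), Kcnab2 (at least 8.64-fold) and Kcnab1 (at least 6.35-fold) were the auxiliary subunits among them. The silent subunits Kcnv1 (8.09 against 4.25) and Kcns2 (10.08 against 6.34) and the M-current subunits Kcnq3 (3.70-fold) and Kcnq5 (at least 6.73-fold) were also higher. The broad pores Kcnd2 (3.47-fold) and Kcna1 (2.88-fold) differed less. Calls for Kcnj3 (7.42-fold) and Kcna2 (2.45-fold) were not made after quantile normalization. Without mature oligodendrocytes 37 were higher and 4 lower, and without layer 5a 34 and 5, where Kcnip2 and Kcnj8 lost their calls. Kcnip2 (2.02-fold) also lost it when any of 8 single arrays was left out.

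The 5 members lower in cortical neurons were Kcnj10, Kcnj16, Kcnk13, Kcng4 and Kcnh8. Kcnj10 averaged 7.33 ± 0.19 in neurons and 11.49 ± 0.19 in glia, a difference of -4.15 (SE 0.12, adjusted p 2.50e-48), at least 9.57-fold lower, with no overlap between arrays. Kcnj16 averaged 3.95 in neurons and 7.35 in glia (at least 2.55-fold lower), and overlapped because mature oligodendrocytes were at background. Kcnk13 differed by -1.57, Kcng4 by -1.35 and Kcnh8 by -1.30 log2 units, all with overlap. The Kcnk13 call was not made without mature oligodendrocytes.

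**Figure D4:**
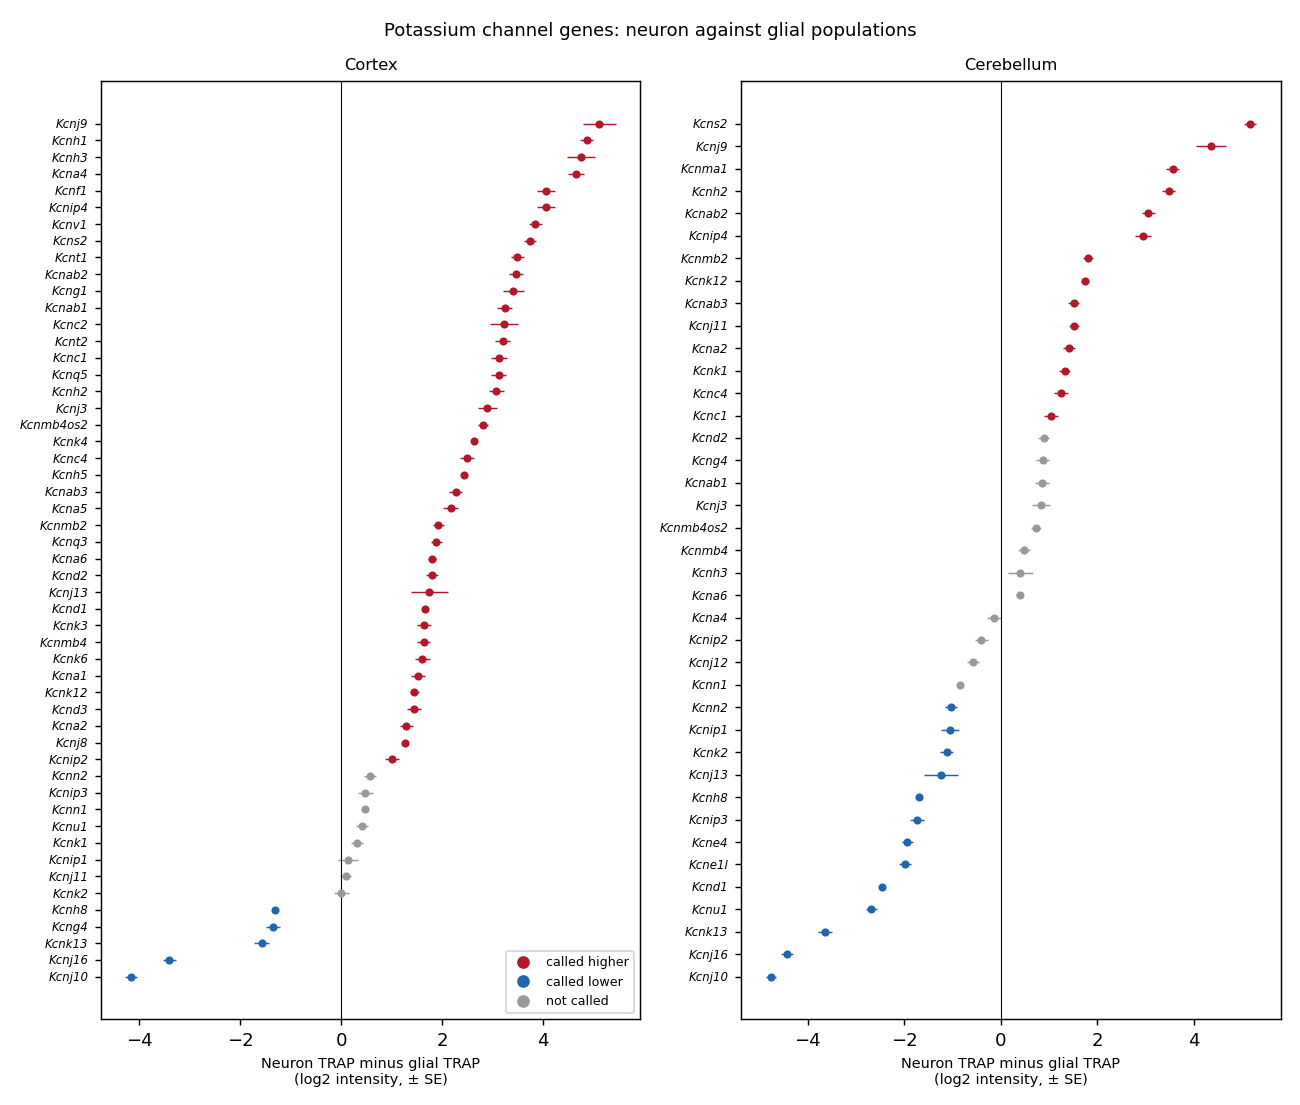
Differences in log2 intensity (points, neurons minus glia) with standard errors (bars) for potassium channel genes in cortex and in cerebellum. Kcnj10 lies at -4.15 in cortex and -4.76 in cerebellum, Kcnj9 at 5.11 and 4.36, and Kcna4 at 4.65 in cortex and near 0 in cerebellum.

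In cerebellum the same comparison (5 neuron populations with 18 arrays, 4 glial ones with 12) was closer to balance. Of 39 members tested, 14 were higher in neurons (35.9%, against 15.7% of all genes) and 13 lower (33.3%, against 32.5%), and quantile normalization gave 15 and 12. The median difference of the members was 0.49, against -0.27 for all genes. Kcns2 averaged 8.23 ± 0.31 in neurons and 3.06 ± 0.20 in glia (SD within populations), a difference of 5.17 (SE 0.12, adjusted p 8.05e-55). Kcnj9 (10.53 against 6.17, at least 12.9-fold) and Kcnh2 (7.39 against 3.91, at least 2.63-fold) were higher without overlap. Kcnma1 (7.92 against 4.36), Kcnab2 (7.56 against 4.50) and Kcnip4 (12.03 against 9.09, 7.70-fold) were higher with overlap. Neuron markers averaged 11.39 in cerebellar mature oligodendrocyte TRAP (6 of 6 at 6 or more), against 11.5 to 12.97 in the cerebellar neurons, and their part was not tested. Kcnc1 (2.06-fold) passed by a small margin, and not after quantile normalization or without the third mature oligodendrocyte array (a difference of 0.97).

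Among the 13 lower, Kcnj10 averaged 7.24 ± 0.10 in neurons and 12.00 ± 0.16 in glia (SD within populations). The difference was -4.76 (SE 0.11, adjusted p 3.57e-54), at least 20.2-fold lower. The arrays overlapped, since unipolar brush neurons lay at 11.51 to 11.83. Kcnj16 (3.96 against 8.38), Kcnk13 (2.57 against 6.20) and Kcnu1 (3.92 against 6.59) were also lower, as were Kcnd1 (2.90 against 5.36), Kcne1l (3.00 against 4.98), Kcne4 (2.16 against 4.09) and Kcnip3 (7.44 against 9.16). Without unipolar brush neurons 15 were higher and 14 lower, and without mature oligodendrocytes 17 and 13. Leaving out the second mature oligodendrocyte array took Kcnip1 to -0.97 and Kcnn2 to -0.93 log2 units, under the 2-fold limit, as did leaving out the first Bergmann array for Kcnn2 (-0.99).

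Astrocytes were set against mature oligodendrocytes within each tissue. In cortex 8 of 15 members tested were higher in astrocytes (53.3%, against 47.8% of all genes) and 5 lower (33.3%, against 13.5%), or 9 and 7 after quantile normalization. The median was 1.78 for members and 0.93 for all genes. Kcnj16 averaged 10.30 ± 0.06 in astrocytes and 2.72 ± 0 in mature oligodendrocytes (SD, n = 4 and 3), a difference of 7.58 (adjusted p 6.42e-45), at least 19.7-fold. Kcnn2 was at 11.72, 10.79, 11.26 and 11.32 in astrocytes, against 7.32, 7.32 and 6.82 in mature oligodendrocytes (17.3-fold, adjusted p 2.47e-27). Kcnk1 was 16.6-fold higher (13.88 ± 0.34 against 9.82 ± 0.14, adjusted p 2.54e-28) and Kcnk2 10.3-fold (10.86 against 7.49). None of these had overlapping arrays. Kcnk13 went the other way, at 2.11, 3.03, 2.57 and 2.57 in astrocytes, against 8.18, 7.84 and 8.28 in mature oligodendrocytes, at least 4.29-fold lower (adjusted p 5.27e-30). Kcna6 was at least 4.93-fold lower (5.26 against 8.30).

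In cerebellum 10 of 13 members tested were higher in astrocytes (76.9%, against 45.7% of all genes) and 2 lower (15.4%, against 18.2%), with medians of 2.33 for members and 0.83 for all genes. Kcnj16 was at least 27.3-fold higher (10.77 ± 0.05 against 4.26 ± 0, adjusted p 1.89e-38), Kcnn2 was also higher (11.54 ± 0.22 against 7.22 ± 0.75, adjusted p 6.46e-27) and Kcnip3 at least 13.3-fold (9.73 against 5.89). Kcne1l was at least 3.86-fold higher (7.95 against 2.22). Kcnj10 was 3.12-fold higher (12.67 ± 0.03 against 11.02 ± 0.20, adjusted p 4.77e-09). Kcnj13 was 3.84-fold higher (adjusted p 0.0145), a call not made without the third astrocyte array (difference 1.55), and Kcnk2 2.85-fold, not made without the third mature oligodendrocyte array (difference 0.88). Kcnk13 was at 2.09 on all 3 astrocyte arrays, against 8.22, 7.12 and 9.42 in mature oligodendrocytes, at least 4.77-fold lower (adjusted p 3.10e-31).

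Within glial classes fewer members were called, among genes that passed the requirement on unbound RNA. Without that requirement the counts were larger, as given below under processing. Between Bergmann glia and cerebellar astrocytes, 12 members were tested and 2 were higher in Bergmann glia (16.7%, against 11.2% of all genes) and 2 lower (16.7%, against 5.4%). The medians were 0.19 for members and 0.32 for all genes, and quantile normalization gave 2 higher and 4 lower. Kcnn1 (7.54 against 5.72, at least 2.91-fold) and Kcnu1 (6.10 against 4.96, not called after quantile normalization) were higher. Oligodendrocyte markers (5 genes) averaged 11.31 in Bergmann glia (5 of 5 at 6 or more) and 7.90 in cerebellar astrocytes (4 of 5), and their part in these 2 differences was not tested. Kcnk2 was at 3.39, 3.25 and 3.39 in Bergmann glia, against 8.04, 8.11 and 8.14 in cerebellar astrocytes (at least 4.28-fold lower), and Kcnj13 was at least 7.64-fold lower beside the choroid plexus markers given above. In cortex, mixed oligodendroglia, which include progenitors (Pdgfra and Cspg4 mean 12.19, against 8.62 in mature oligodendrocytes), were tested for 12 members. Of these, 5 were higher than in mature oligodendrocytes (41.7%, against 43.4% of all genes) and 3 lower (25%, against 7%), or 4 and 6 after quantile normalization. The medians were 0.42 for members and 0.83 for all genes. Kcnj16 was at least 8.16-fold higher (9.03 ± 0.42 against 2.72 ± 0), Kcnip1 7.48-fold (9.87 against 6.96), Kcnip3 5.10-fold (8.87 against 6.52) and Kcnh8 at least 1.18-fold (6.24 against 2.77). Astrocyte markers averaged 10.98 in mixed oligodendroglia and 9.36 in mature oligodendrocytes, and their part in the Kcnj16 level was not tested. Kcnk13 was lower, at 6.83, 6.75 and 6.36 in mixed oligodendroglia, against 8.18, 7.84 and 8.28 in mature oligodendrocytes (2.74-fold, adjusted p 2.83e-05).

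Among cortical neurons, Cort+ neurons, named for cortistatin, an interneuron peptide, were compared with deep-layer neurons (layers 5a, 5b and 6). Of 49 members tested, 5 were higher in Cort+ neurons (10.2%, against 4.56% of all genes) and 17 lower (34.7%, against 36.5%). The lower count rested on the scaling, with 4 lower after quantile normalization and 7 higher, and the medians were -0.63 for members and -0.71 for all genes. Kcnmb2 averaged 7.19 ± 0.37 in Cort+ neurons and 2.89 ± 0.01 in deep-layer neurons (SD within populations, n = 3 and 9), a difference of 4.3 (SE 0.19, adjusted p 3.12e-34). That SD leaves out the spread between layers, with Kcnmb2 at 3.83 in layer 5b and 2.08 in layer 6. Kcnh3 was 4.03-fold higher (10.70 against 8.69), Kcnc1 2.95-fold (12.97 against 11.41) and Kcnip1 2.90-fold (9.01 against 7.48), and these 4 were also called after quantile normalization. Kcnn2 was 4.61-fold lower (8.67 against 10.88), Kcnab2 3.38-fold lower (9.15 against 10.91) and Kcnj13 at least 2.25-fold lower, and all 3 were called after quantile normalization too. Kcnf1 (2.67-fold lower) and Kcnd3 (2.72-fold lower) were not. Without layer 5a, 5 were higher and 11 lower, and Kcnj8 and Kcnj10 lost their calls.

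Layer 5b neurons were then compared with layer 6 neurons. Of 37 members tested, 3 were higher in layer 5b (8.11%, against 10.2% of all genes) and 2 lower (5.41%, against 5.1%). The medians were -0.05 for members and 0.11 for all genes. Kcnab2 was at 11.24, 11.41 and 11.08 in layer 5b, against 9.96, 9.76 and 9.76 in layer 6 (2.67-fold, adjusted p 4.33e-05), and Kcng1 was 2.77-fold higher (adjusted p 0.00523). Kcnk12 was higher too (6.36 against 2.96), a call not made after quantile normalization. Kcnt2 was at 8.61, 8.18 and 8.59 in layer 5b, against 9.88, 10.27 and 10.59 in layer 6 (3.45-fold lower, adjusted p 1.63e-06). Kcnk1 was 2.13-fold lower (11.63 against 12.72). Endothelial markers (5 genes) averaged 6.75 in layer 5b (3 of 5 at 6 or more) and 2.58 in layer 6 (0 of 5), and their part in these differences was not tested. The counts moved with single arrays: without layer 5b replicate 1 there were 6 higher and 1 lower, with Kcnk1 at -0.98, and without replicate 2 there were 5 higher.

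In striatum, Drd1+ and Drd2+ medium spiny neurons were compared first. Of 28 members tested, 5 were higher in Drd1+ neurons (17.9%, against 7.4% of all genes) and 0 were lower in limma (0%, against 0.928%), with 2 lower at an unadjusted p under 0.05. The medians were 0.43 for members and 0.37 for all genes. Only Kcnc4 was also called higher after quantile normalization, where 1 was higher and 2 lower, and none was called higher without further scaling. Kcnc4 was at 8.73, 8.73 and 8.29 in Drd1+ neurons, against 6.39, 6.56 and 6.56 in Drd2+ neurons (4.24-fold, adjusted p 5.30e-08). Kcna6 (8.79 against 7.05) and Kcnma1 (8.21 against 7.18) were among the other 4, and Kcnma1 lost its call without Drd1+ replicate 1 (0.84) or Drd2+ replicate 3 (0.89).

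Striatal cholinergic neurons, which fire tonically, differed from medium spiny neurons in most members tested. Of 37, 12 were higher in cholinergic neurons (32.4%, against 21.3% of all genes) and 20 lower (54.1%, against 39.6%), or 13 and 14 after quantile normalization. The medians were -1.24 for members and -0.51 for all genes. Kcnt2 was at 11.19, 11.33 and 10.17 in cholinergic neurons, against 4.20, 4.17 and 4.20 in Drd1+ and 4.63 on all 3 Drd2+ arrays, at least 29.8-fold higher (adjusted p 3.65e-37). Kcnc2 was at 12.28, 12.28 and 11.81, against 8.67, 8.86 and 8.70 in Drd1+ and 7.17, 7.98 and 7.84 in Drd2+ neurons (15.1-fold, adjusted p 3.46e-11). No medium spiny array reached the cholinergic range of either gene. Kcnj3 (9.31 against 6.87, at least 4.76-fold), Kcnj12 (8.20 against 4.72, at least 4.59-fold), Kcnk12 (7.38 against 3.34) and Kcnip4 (12.19 against 10.34, 3.60-fold) were also higher.

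The 20 lower members included 4 of 6 auxiliary subunits tested (1 was higher), 4 of 4 silent modifier subunits and 3 of 7 voltage-gated pores (2 were higher). Kcnab1 was at 8.94, 8.62 and 8.32 in cholinergic neurons, against 14.25 to 14.54 on the 6 medium spiny arrays, 56.1-fold lower (difference -5.81, SE 0.27, adjusted p 1.24e-33). Kcnip2 was at 8.54, 8.43 and 8.39, against 13.55 to 14.08 on the medium spiny arrays, 40.3-fold lower (difference -5.33, SE 0.25, adjusted p 1.99e-33). Kcnip3 was at least 7.81-fold lower (3.07 against 8.97), Kcng1 at least 6.91-fold (2.56 against 8.79), Kcnh1 at least 9.21-fold (4.24 against 9.20) and Kcnf1 at least 17.6-fold (5.74 against 10.14). Kcna2 was 5.57-fold lower (9.95 against 12.43). Kcnq5 was 13.1-fold lower, a call that was not made after quantile normalization or without Drd1+ replicate 1. The call needs Drd1+ or Drd2+ neurons to exceed unbound striatum, and Kcnq5 was at 10.815 and 10.325 against 10.809 there.

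**Figure D5:**
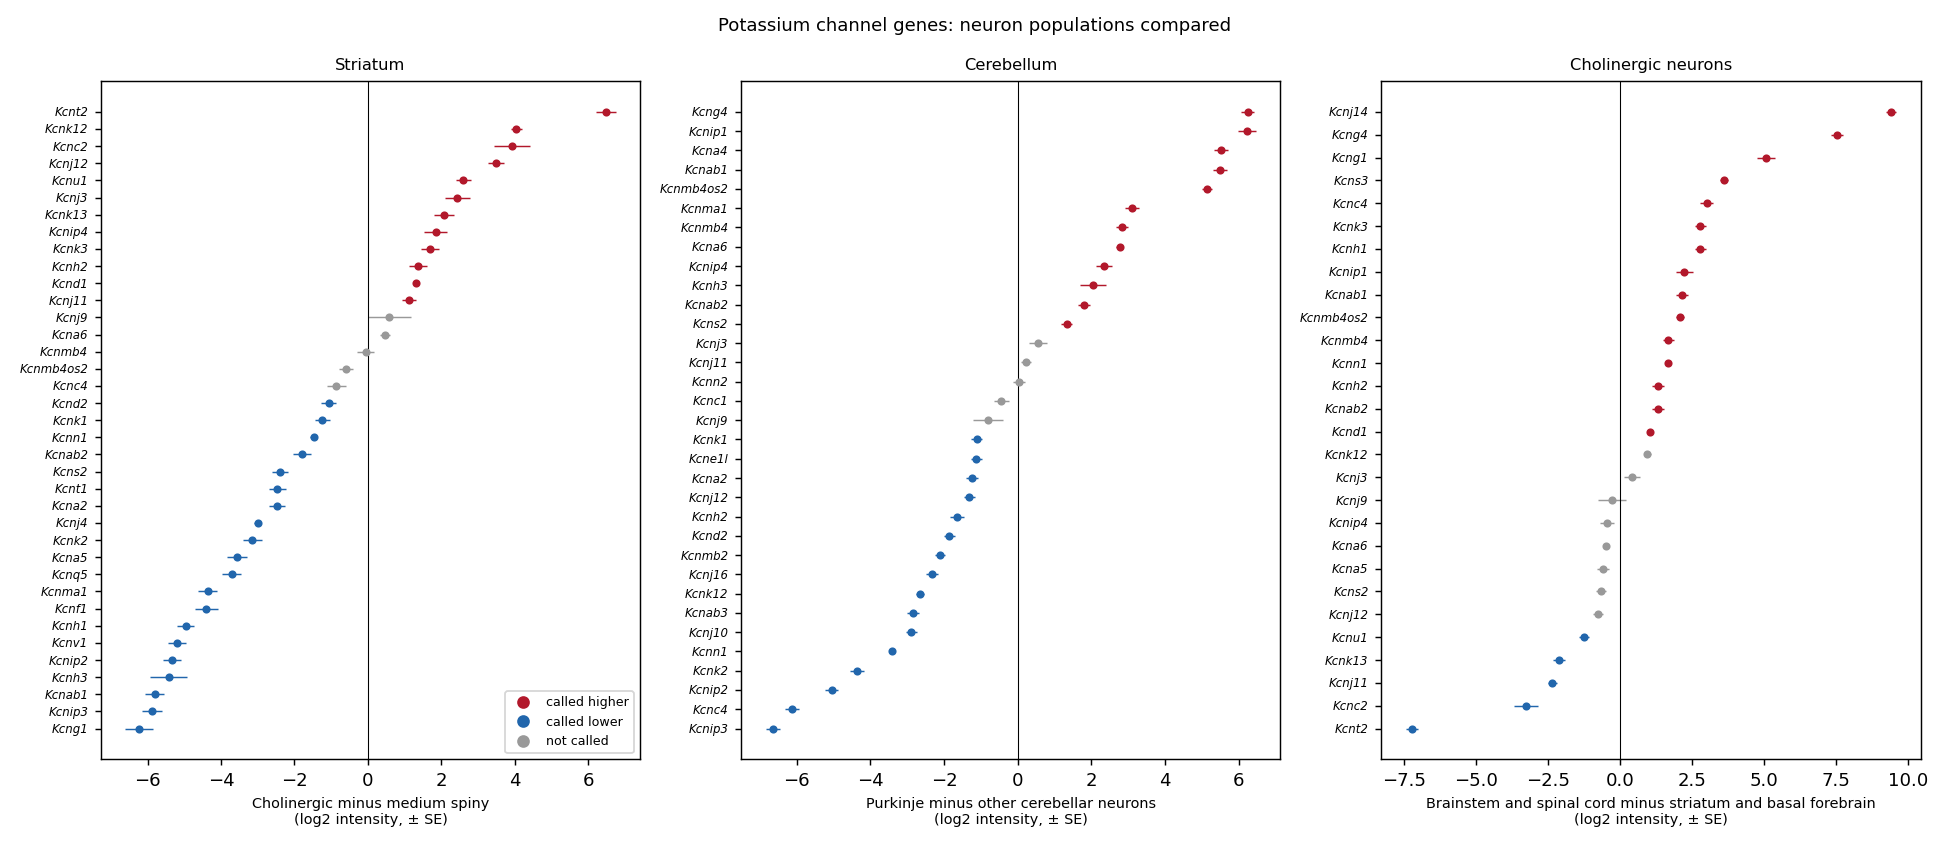
Differences in log2 intensity (points) with standard errors (bars) for potassium channel genes in 3 comparisons of neurons: striatal cholinergic minus medium spiny, Purkinje minus other cerebellar, and hindbrain and cord minus forebrain cholinergic neurons. Kcnt2 lies at 6.49 in the first and -7.21 in the third, and Kcnab1 at -5.81 in the first and 5.51 in the second.

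Purkinje neurons were compared with the mean of stellate and basket, unipolar brush, Golgi and granule neurons. Of 33 members tested, 12 were higher in Purkinje neurons (36.4%, against 24.8% of all genes) and 16 lower (48.5%, against 26.4%), or 13 and 19 after quantile normalization. The medians were -0.81 for members and 0.14 for all genes. Kcnip1 ran from 11.70 to 12.46 in Purkinje neurons, against 7.18 on all 3 granule arrays, 2.21, 3.15 and 2.21 in Golgi, 5.98, 5.98 and 6.56 in unipolar brush and 7.55, 7.73 and 7.85 in stellate and basket neurons (at least 40.9-fold, adjusted p 3.10e-38). Kcnab1 ran from 12.72 to 13.22, against 9.47, 9.45 and 9.45 in granule neurons, the next highest of the 4, and was at least 34.5-fold higher (adjusted p 1.40e-42). Neither overlapped with another cerebellar neuron. Kcng4 was at least 13-fold higher against the mean of the 4 (adjusted p 7.93e-49), yet overlapped with stellate and basket neurons. Of the subunits of large-conductance channels, Kcnmb4 was 7.11-fold higher, at 11.72 ± 0.31 against 8.88 ± 0.26 (SD within populations, n = 6 and 12). Kcnma1 was at 10.40 ± 0.53 against 7.30 ± 0.36 (at least 4.3-fold higher, with overlap). Kcnmb2 was lower (2.10 against 4.21). Kcnmb4os2 was at least 16.9-fold higher, and overlap of its signal with Kcnmb4 was not tested. Kcnip4 was 5.07-fold higher (13.91 against 11.56) and Kcna4 at least 2.82-fold (7.5 against 1.96).

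On the lower side, Kcnc4 averaged 4.03 ± 0.25 in Purkinje neurons and 10.16 ± 0.25 in the other neurons (SD within populations). It was at least 17.8-fold lower (adjusted p 3.33e-46), with no overlap. Kcnip3 (2.11 against 8.77, at least 6.82-fold) and Kcnip2 (2.13 against 7.17, at least 2.26-fold) were lower as well, so the 4 Kcnip members split 2 and 2. Kcnd2, whose channels these proteins bind, was 3.62-fold lower (9.72 against 11.58). Kcnn1 (2.82 against 6.24) and Kcnab3 (3.71 against 6.56) were also lower. Without unipolar brush neurons 12 were higher and 10 lower, and Kcnip2, Kcnk2, Kcnj10 and Kcnj16 were among those that lost their calls.

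Granule and unipolar brush neurons, 2 excitatory neurons of the granular layer, differed in 17 of 19 members tested. In granule neurons 7 were higher (36.8%, against 16.2% of all genes) and 10 lower (52.6%, against 32.5%), or 10 and 12 after quantile normalization. The medians were -2.43 for members and -0.21 for all genes. Kcnc1 was at 14.62, 14.52 and 14.65 in granule neurons, against 11.51, 11.82 and 11.64 in unipolar brush neurons (7.67-fold, adjusted p 4.26e-13). Kcnh3 was at least 8.74-fold higher (9.13 against 4.73) and Kcnd2 3.21-fold (13.47 against 11.79). Kcnj12 was at 7.30, 7.92 and 8.21 in granule neurons, against 2.35, 2.46 and 2.35 in unipolar brush neurons. The call was not made without the third granule array (difference 5.22). It needs granule neurons to exceed unbound cerebellum, and their means were 7.81 and 7.72. Among those lower, Kcnj10 (5.54 against 11.63, at least 49.5-fold) and Kcnj16 (2.02 against 8.30, at least 4.91-fold) moved with astrocyte markers, which averaged 6.17 in granule and 12.04 in unipolar brush TRAP. Kcnn2 was 9.85-fold lower (7.09 against 10.39) and Kcnh2 8.48-fold lower (6.26 against 9.35). The part of astrocyte RNA in these differences was not tested.

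Cholinergic neurons of hindbrain and cord (brainstem motor and spinal cord) were compared with those of forebrain (striatum and basal forebrain), which share the chat driver. Of 28 members tested, 15 were higher in hindbrain and cord (53.6%, against 14% of all genes) and 5 lower (17.9%, against 24%), or 18 and 7 after quantile normalization. The median difference of the members was 1.18, against -0.32 for all genes. Kcnj14 was at 12.46, 12.15 and 12.32 in motor and 11.66, 11.61 and 11.77 in cord neurons, against 2.56 on all 3 striatal and 2.62 on all 3 basal forebrain arrays, a difference of 9.41 (SE 0.17, adjusted p 8.60e-62), at least 63.7-fold. Kcng4 was at 10.06, 9.99 and 9.83 in motor and 9.63, 9.72 and 10.12 in cord neurons, against 2.61 on all 3 striatal and 2.13 on all 3 basal forebrain arrays (at least 14.9-fold, adjusted p 6.95e-50). The forebrain arrays of both genes were thus at background. Kcnc4 was 8.05-fold higher (10.56 ± 0.30 against 7.55 ± 0.10, SD within populations, n = 6 each) and Kcnk3 6.93-fold (10.51 ± 0.13 against 7.72 ± 0.29). Kcnip1 was at least 4.23-fold higher, Kcnab1 4.45-fold and Kcnmb4 3.20-fold. Kcns3 (5.98 against 2.37) lost its call without the second motor array.

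The 5 lower members included Kcnt2 and Kcnc2, which were also higher in striatal cholinergic than in medium spiny neurons; both comparisons share the striatal cholinergic arrays. Kcnt2 was at 2.44, 2.44 and 2.46 in motor and 3.5, 3.32 and 3.32 in cord neurons, against 11.19, 11.33 and 10.17 in striatal and 9.21, 9.36 and 9.51 in basal forebrain neurons (at least 17.5-fold lower, adjusted p 1.53e-46). Kcnc2 was 9.59-fold lower (8.74 ± 0.16 against 12.01 ± 0.19, SD within populations, adjusted p 2.66e-11), with motor arrays at 9.39, 9.61 and 9.70. Kcnj11 was at least 4.20-fold lower (6.49 against 8.85), and Kcnk13 and Kcnu1 were also called.

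The unbound RNA of cerebellum, left after purification, was compared with that of cortex. Of 48 members tested, 21 were higher in cerebellum (43.8%, against 47.1% of all genes) and 14 lower (29.2%, against 8.23%), or 13 and 17 after quantile normalization. The medians were 0.81 for members and 0.93 for all genes, which became 0.13 after quantile normalization, so the split between higher and lower depended on the scaling. Kcnf1 averaged 2.47 ± 0.09 in cerebellum and 11.04 ± 0.78 in cortex (SD, n = 7 and 9), a difference of -8.57 (SE 0.23, adjusted p 3.96e-50), at least 32.8-fold lower. The lowest cortex array of Kcnf1 was 10.15. Kcnq5 (2.49 against 10.27, at least 19.3-fold) and Kcnc2 (4.79 against 10.70, at least 26.0-fold) were also lower, and Kcnt2 was at least 12.3-fold lower. Kcng4 (8.82 ± 0.69 against 1.99 ± 0.29, at least 7.07-fold), Kcnk10 (9.74 ± 0.48 against 3.67 ± 0.65, at least 13.3-fold) and Kcnk3 (10.54 ± 0.17 against 6.24 ± 0.41, 19.6-fold, adjusted p 2.13e-37) were higher in cerebellum. Kcnk10, a mechanically gated leak channel, ran from 9.17 to 10.71 in unbound cerebellum, while its highest TRAP population, granule neurons, averaged 7.67.

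Partners of potassium channels that carry other symbols were read from a list of 14 genes on the array. In cortical neurons 11 of 12 tested were higher than in glia (31.2% of all genes were), among them Dpp6 (9.96 against 6.46) and Dpp10 (12.16 against 8.91), membrane partners of Kcnd channels, and the scaffold Dlg4 (6.95 against 2.76). In cerebellum 4 of 5 tested were higher in neurons (15.7% of all genes). Purkinje neurons had 2 of 4 higher (24.8% of all genes), including Dpp10 (13.44 against 10.07), and 1 lower (26.4%), Lrrc38, an auxiliary subunit of large-conductance channels (2.81 against 8.71). In striatal cholinergic neurons 1 of 9 was higher than in medium spiny neurons (Dpp6; 21.3% of all genes) and 4 were lower (39.6% of all genes; Dpp10, Cntn2, Adam22 and Dlg4). In hindbrain and cord cholinergic neurons 3 of 7 were higher than in forebrain ones (14% of all genes) and 2 lower (24%), including Lgi1, a secreted ligand of the Adam22 receptor (6.55 against 10.69).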

How the data were processed

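The deposited values were linear intensities of Affymetrix probe sets, which the authors normalized with GCRMA within groups of replicates, per the labels and the study's design text. The GCRMA version is not given in the sources used here. Intensities were floored at 1 and taken to log2 from the deposited values. One constant per group then brought 18 biotinylated control probe sets to a common mean in all 30 groups (group means before this ran from 10.13 to 12). Of the probe sets, 34945 had 1 symbol, and 932 with several were left out. For each gene the probe set with the highest mean over the 107 arrays was kept.

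One limma fit (version 3.58.1 in R 4.3.3) had 30 group coefficients and empirical Bayes moderation with a trend, and p-values were adjusted (Benjamini-Hochberg) over all genes tested. A gene was tested where a mean on either side reached 6. Between TRAP populations, a gene was tested only if it also exceeded its tissue's unbound RNA in some population compared. A call needed this in some population of the side where the gene was higher. Means of several populations were averaged and their SDs pooled, so such an SD leaves out the differences between those populations. Array numbers limit the precision, and the levels of different probe sets were not compared. The code was tested on simulated data.

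The members, marker lists and partner list were chosen with earlier results of these data known. The text names up to 8 called members per direction with the largest differences and a fixed set of role genes, and up to 3 per population against unbound RNA. Other members are given by class. Same-numbered samples of different populations did not pair: over 21 pairs of populations the correlation of deviations ran from -0.332 to 0.391, with 5 over 0.1. Over 21 TRAP and unbound pairs it ran from -0.294 to 0.629, with 11 over 0.1. Brainstem (0.49 to 0.629) and basal forebrain samples (0.343 to 0.521) did pair, while spinal cord ones ran from -0.294 to 0.0347. The main fit did not use this pairing. With the preparation as a random block, 131 gene differences against unbound RNA kept their call. Alternatives were quantile normalization, no further scaling, no minimum or a minimum of 8, the mean of probe sets, no requirement on unbound RNA, replicates left out and replicate blocks.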

Additional observations from a re-analysis of the deposited data

Results flagged for a closer look

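Of 32 sets of values, each 1 gene in 1 group of 4 to 10 arrays, 4 had a value far from the others, and chance gives about 1 in 20. The highest of 4 cortical astrocyte arrays for Kcnj16 was 10.39, and the lowest of 4 for Kcnj14 was 4.52. In unbound cerebellum the highest of 7 arrays was 10.65 for Kcnj10 and 10.9 for Kcnk3.

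The difference between neurons and glia was itself different in cortex and cerebellum for 25 of 35 members tested, against 37.1% of 7708 genes. A call needed an adjusted p under 0.05 (limma interaction) and at least a 2-fold difference between the tissues. The neuron types differ between the tissues and Bergmann glia are in cerebellum alone, so tissue and mix of populations cannot be told apart. Values are log2 differences, cortex minus cerebellum, with the 2 tissues' own differences in that order in brackets. Pore subunits were Kcna4 at 4.78 (4.65, -0.13), Kcna6 at 1.40 (1.80, 0.40), Kcnc1 at 2.09 (3.13, 1.05), Kcnc4 at 1.24 (2.49, 1.25) and Kcnd1 at 4.12 (1.66, -2.46). Silent and Kcnh subunits were Kcng4 at -2.22 (-1.35, 0.87), Kcns2 at -1.43 (3.74, 5.17) and Kcnh3 at 4.34 (4.75, 0.41). Auxiliary subunits were Kcnab1 at 2.38 (3.24, 0.86), Kcnip1 at 1.18 (0.14, -1.04), Kcnip2 at 1.42 (1.02, -0.40), Kcnip3 at 2.21 (0.48, -1.72), Kcnip4 at 1.11 (4.05, 2.94) and Kcnmb4 at 1.15 (1.64, 0.49). The noncoding Kcnmb4os2 was at 2.09 (2.81, 0.72). Inward rectifiers were Kcnj3 at 2.05 (2.89, 0.84), Kcnj11 at -1.42 (0.09, 1.51), Kcnj13 at 2.99 (1.75, -1.24) and Kcnj16 at 1.02 (-3.40, -4.42). Two-pore-domain subunits were Kcnk1 at -1.01 (0.32, 1.33), Kcnk2 at 1.12 (0.00, -1.12) and Kcnk13 at 2.06 (-1.57, -3.64). Activated channels were Kcnn1 at 1.32 (0.48, -0.85), Kcnn2 at 1.60 (0.57, -1.03) and Kcnu1 at 3.10 (0.42, -2.68).

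The difference between astrocytes and mature oligodendrocytes differed between tissues for 3 of 9 members, against 42.2% of 3594 genes. Kcnip3 was at -2.06 (1.78, 3.84), Kcnj16 at 1.07 (7.58, 6.51) and Kcnk2 at 1.86 (3.37, 1.51).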

How the results depend on the processing

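Counts of called members depended on the scaling and on the minimum. Without further scaling, 3 members were lower in cortical astrocytes than in mature oligodendrocytes, 1 was lower in mixed than in mature oligodendroglia, 0 were higher and 2 lower in Drd1+ than in Drd2+ neurons, and 10 were lower in striatal cholinergic than in medium spiny neurons. After quantile normalization, 4 were lower in Bergmann glia, 6 in mixed oligodendroglia and 4 in Cort+ neurons, 1 was higher and 2 lower in Drd1+ neurons, and 13 were higher in unbound cerebellum. With no minimum, 4 were lower in cerebellar astrocytes, 8 higher in mixed oligodendroglia, 6 higher and 5 lower in layer 5b, and 1 lower in Drd1+ neurons. With a minimum of 8, 3 were lower in cortical neurons than in glia, 5 higher and 2 lower in cortical astrocytes, 1 lower in cerebellar astrocytes, 0 higher in Bergmann glia, 1 lower in mixed oligodendroglia, 3 higher and 11 lower in Cort+ neurons, 3 higher in Drd1+ neurons, 7 higher in striatal cholinergic neurons and 9 lower in unbound cerebellum. With the mean of probe sets, 1 was lower in cortical astrocytes, 1 higher in Bergmann glia, 0 lower in mixed oligodendroglia, 1 lower in layer 5b, 7 higher in striatal cholinergic and 3 higher in granule neurons. Without the requirement on unbound RNA, 25 were lower in cortical and 20 in cerebellar astrocytes, 12 higher and 6 lower in Bergmann glia, 10 higher and 10 lower in mixed oligodendroglia, 15 higher in granule neurons and 9 lower in hindbrain and cord cholinergic neurons. Of alternatives chosen after seeing the data, leaving out unipolar brush neurons gave 10 lower in Purkinje neurons and leaving out layer 5a gave 11 lower in Cort+ neurons. The cause of these changes was not tested.

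The mean of probe sets turned 3 differences round: Kcnk1 in striatal cholinergic neurons (0.19, against -1.24), and Kcnip1 against unbound RNA in Drd1+ (0.22) and layer 5b neurons (0.035). Leaving out 79 replicates one at a time gave 60 to 61 members varying. Counts higher and lower were 38 to 40 and 5 for cortical neurons, 13 to 14 and 11 to 14 for cerebellar neurons, 8 to 10 and 4 to 5 for cortical astrocytes, 9 to 11 and 2 to 3 for cerebellar astrocytes, and 2 and 2 to 3 for Bergmann glia. They were 5 to 6 and 2 to 3 for mixed oligodendroglia, 5 to 6 and 16 to 20 for Cort+, 3 to 6 and 1 to 3 for layer 5b, 4 to 6 and 0 for Drd1+, 12 and 18 to 20 for striatal cholinergic, 12 and 15 to 17 for Purkinje, 5 to 8 and 9 to 10 for granule and 13 to 16 and 5 to 7 for hindbrain and cord neurons. Of the single-gene differences, 3069 kept their side of the threshold and 36 lost it.

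With the sample number as a replicate block, cortical neurons again had 39 higher and 5 lower, 359 gene differences kept their call and 1 lost it (Kcnk1 in Purkinje neurons, -0.88). Signal over background limits levels under 6, for which folds are lower bounds.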
